A study of Mus musculus with 4 samples.

Results

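The genes described here are 36 cell cycle genes, 16 of them expressed around S phase and 20 in G2 and mitosis, out of 27999 genes in each of 4 single-cell count matrices from mouse back skin. They were chosen by symbol from a list of widely used phase markers, not by a rule on their values, but with earlier results of these data known. All 36 symbols were found in each matrix. The cells were sorted to enrich hair follicle mesenchyme, the connective tissue of the follicle. One library came from 18-month and one from 2-month α-SMACreERT2:RosaYFP mice, prepared with 10x Genomics v2 chemistry, and one from 12-month and one from 2-month α-SMACreERT2:RosaTDTomato mice, prepared with v3 chemistry. All mice were on the C57BL/6J background and had received tamoxifen on postnatal days 3 and 4, which switches on the reporter in cells that then used the smooth muscle actin promoter and in their later descendants. Each library pooled cells of 2 mice, sorted as reporter-positive or Cd26-positive and, in addition, Itga9-positive or Cd200-positive. An older age was thus measured in 1 library each, and chemistry, reporter and the age of the older mice (18 or 12 months) went together and cannot be told apart. The hair cycle stage of the mice was not given in the sources used here.

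A cell that divides first copies its DNA in S phase and then, after G2, separates the copies in mitosis. E2F transcription factors drive many genes of DNA replication before and during S phase, while genes of G2 and mitosis are largely held back by the DREAM complex, through promoter elements called CHR, until B-MYB and FOXM1 activate them late in the cycle. In skin, keratinocytes of the hair matrix are among the fastest dividing cells while hair grows, whereas most cells of the dermal papilla, the mesenchymal signalling centre of the follicle, rarely divide.

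The promoters of the members carried the elements that these 2 arms of control are known for, and 4 of them are shown because the genes recur in the results that follow. RefSeq windows (build GRCm38.p6, 250 bases before to 50 after each start) were matched by symbol for 31 of the 36 members and gave 33 windows, since Mcm7 and Uhrf1 had 2 each. An E2F-type motif (spelled TTCCCGC, or with a G as TTCGCGC, or as the form TTGCCGC, or as the form TTGGCGC, on either strand) was present in 11 of 16 S phase windows (68.8%) and in 3 of 17 G2/M windows (17.6%, those of Ccnb1, Cdk1 and Mki67), against 9.57% of 32851 windows of all genes. A CHR-type motif (TTTGAA or TTCGAA, on either strand) was present in 3 of 16 S phase windows and in 13 of 17 G2/M windows (76.5%), against 19.2% of all windows. The CCAAT motif, searched on both strands, was found in 13 of 16 and 15 of 17 windows, against 37.4% of all. An E2F-type and a CCAAT motif overlapped in 1 S phase and 1 G2/M window and in 148 of all windows, and no member's E2F-type motif overlapped a CHR-type one. In the sequences shown, which are 300 bases on the gene's own strand, capitals mark E2F-type motifs in Mcm5 (chr8:75109259-75109558, plus strand) and Mcm6 (chr1:128359656-128359955, minus strand), both subunits of the replicative helicase, and CHR-type motifs in Ccnb2 (chr9:70421505-70421804, minus strand), a mitotic cyclin, and Cenpa (chr5:30666636-30666935, plus strand), the histone H3 variant of centromeres. A match describes the letters only.
Mcm5: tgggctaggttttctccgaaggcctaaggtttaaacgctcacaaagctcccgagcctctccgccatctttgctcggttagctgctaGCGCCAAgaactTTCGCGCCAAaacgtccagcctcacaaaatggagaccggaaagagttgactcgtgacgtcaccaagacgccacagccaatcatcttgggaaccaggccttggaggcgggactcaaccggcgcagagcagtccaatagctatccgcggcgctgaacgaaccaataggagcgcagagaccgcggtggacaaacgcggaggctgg
Mcm6: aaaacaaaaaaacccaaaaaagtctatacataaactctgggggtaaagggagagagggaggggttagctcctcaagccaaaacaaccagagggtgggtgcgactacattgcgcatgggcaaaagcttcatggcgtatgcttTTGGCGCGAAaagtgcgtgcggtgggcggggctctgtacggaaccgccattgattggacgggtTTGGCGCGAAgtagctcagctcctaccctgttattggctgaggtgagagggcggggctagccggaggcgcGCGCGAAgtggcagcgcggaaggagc
Ccnb2: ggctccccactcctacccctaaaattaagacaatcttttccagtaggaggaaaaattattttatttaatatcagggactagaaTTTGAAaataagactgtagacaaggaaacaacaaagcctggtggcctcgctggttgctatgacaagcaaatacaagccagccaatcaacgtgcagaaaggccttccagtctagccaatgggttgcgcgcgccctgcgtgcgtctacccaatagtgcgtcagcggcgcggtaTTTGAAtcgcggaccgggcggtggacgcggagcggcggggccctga
Cenpa: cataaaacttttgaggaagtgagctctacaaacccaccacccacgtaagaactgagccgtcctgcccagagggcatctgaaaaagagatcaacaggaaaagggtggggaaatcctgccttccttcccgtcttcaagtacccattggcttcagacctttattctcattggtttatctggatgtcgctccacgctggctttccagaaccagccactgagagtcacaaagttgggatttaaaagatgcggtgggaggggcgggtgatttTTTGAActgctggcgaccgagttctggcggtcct

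After filtering, 2431 cells of the 18-month library and 1677 of its 2-month partner, and 3964 cells of the 12-month library and 5388 of its 2-month partner, were kept. Their median depth was 6588 and 6253 UMIs (unique molecular identifiers, each 1 counted transcript molecule) in the v2 pair and 11799 and 11942.5 in the v3 pair. The matrices held 17831300 to 77032628 UMIs each. Their 2727, 1906, 5474 and 7023 barcodes differed from the recovered cells in the labels (3776, 2604, 5415 and 6998), and the direction of the v2 pair rests on the matrices being assigned as deposited. The v3 pair shared 84 barcode sequences in the files and 11 among kept cells, and the v2 pair shared 7 and 7. Clusters, built without the cell cycle genes, were named after marker lists as papilla-like, sheath-like, fibroblast-like, keratinocyte-like and macrophage/dendritic-like. The mesenchymal markers were present, so the labelled tissue was there, beside cells of other types. One pair of unnamed clusters held 34.9% of the 2-month v3 library. Different clusters often held most of a class in different libraries, which is said beside each class.

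Levels are given as counts per 1000000 UMIs of all kept cells (CPM). This 3' assay counts each transcript once, so levels are not divided by length and are compared within a gene, not between genes. A higher summed CPM can come from more cells in a phase or from more transcripts per such cell, and the sums do not tell these apart. The median S phase member had 11.8 CPM in 18-month and 11.5 CPM in 2-month v2 cells, against 10.7 CPM in 12-month and 9.93 CPM in 2-month v3 cells. The G2/M members had medians of 12.9 CPM at 18 months and 10.2 CPM at 2 months (v2), and of 12.5 CPM at 12 months and 7.81 CPM at 2 months (v3). All 36 were detected in every library, the scarcest with 45 and 23 UMIs in the v2 pair and 105 and 140 UMIs in the v3 pair.

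**Figure D1:**
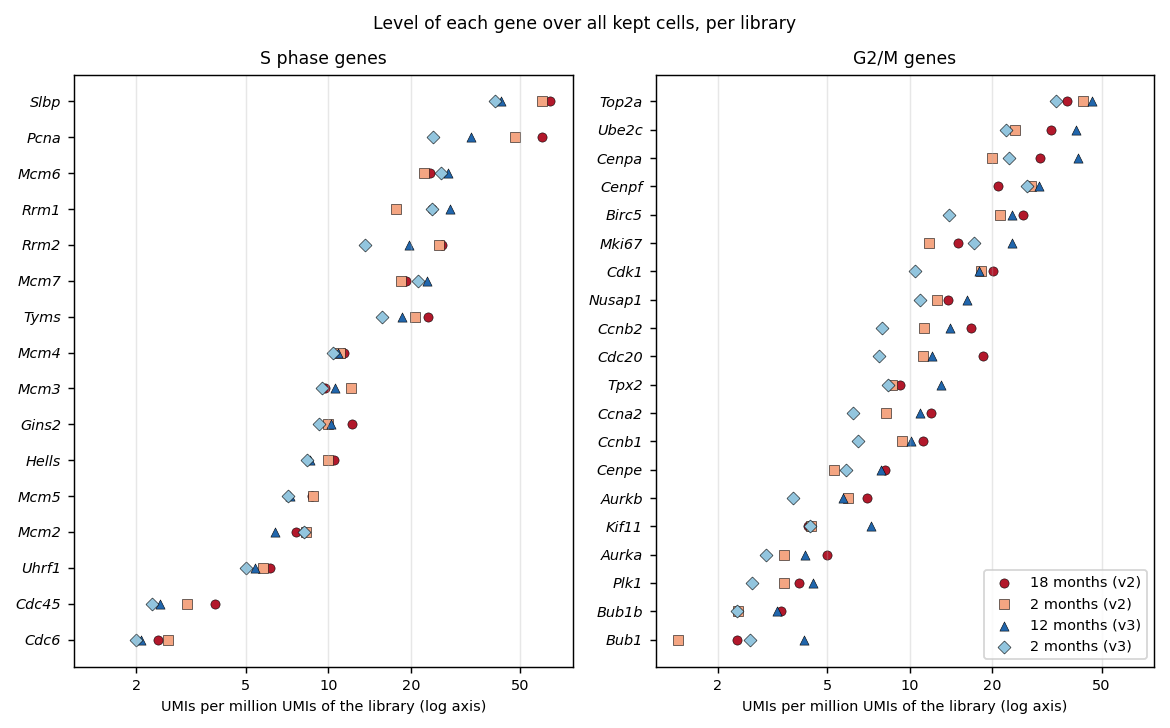
Level of each member in each library, in CPM on a log axis, S phase and G2/M genes apart and the older library of each chemistry before its 2-month partner; each point is 1 library. Most S phase points of a gene lie close together, while many G2/M points of the 12-month library lie above those of its partner, such as Ube2c at 40.4 CPM against 22.4 CPM.

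Among the S phase members, the helicase subunits differed little with age. Mcm4 had 11.4 CPM in the 18-month and 11.01 CPM in the 2-month v2 library, and 10.8 CPM in the 12-month and 10.4 CPM in the 2-month v3 library. Mcm6 had 23.6 CPM at 18 months and 22.3 CPM at 2 months, and 27.3 CPM at 12 months and 25.8 CPM at 2 months. For both genes, older over younger ratios were 1.04 to 1.06, with counting intervals that held 1. Mcm7 had ratios of 1.05 and 1.08 in the v2 and v3 pair, and Mcm5 of 0.984 and 1.02. Mcm7 overlaps Cops6 and Ap4m1 on the other strand. Mcm2 had 7.60 CPM at 18 months and 8.28 CPM at 2 months (v2), and 6.41 CPM at 12 months and 8.17 CPM at 2 months (v3), a ratio of 0.785 in the v3 pair (95% interval 0.683 to 0.901). Mcm3 had ratios of 0.807 (0.656 to 0.991) in the v2 pair and 1.12 (0.996 to 1.26) in the v3 pair, on either side of 1. All such intervals are exact intervals for the ratio of 2 Poisson counts and cover counting error only. Gins2, part of the GINS complex that joins the helicase, had ratios of 1.22 (0.995 to 1.502) in the v2 pair and 1.11 in the v3 pair. Cdc45, its other partner, had ratios of 1.26 (0.869 to 1.85) and 1.07. Cdc6, which loads the helicase, was the scarcest, with 2.40 CPM and 2.61 CPM in 18-month and 2-month v2 cells and 2.08 CPM and 2.00 CPM in 12-month and 2-month v3 cells.

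Pcna and Rrm1 were the S phase members with an interval above 1 in both pairs, and Rrm2 and Tyms had one in the v3 pair. Pcna, the sliding clamp of DNA polymerase, had 60.0 CPM at 18 months and 48.1 CPM at 2 months (v2), and 33.3 CPM at 12 months and 24.1 CPM at 2 months (v3). Its ratios were 1.25 (1.14 to 1.37) and 1.38 (1.29 to 1.48). Pcna was thus higher in the older library of each pair by more than counting error, and lower in both v3 libraries than in both v2 libraries. Rrm1, the large subunit of ribonucleotide reductase, had 23.9 CPM at 18 months and 17.7 CPM at 2 months, and 27.9 CPM at 12 months and 23.8 CPM at 2 months, with ratios of 1.35 (1.16 to 1.57) and 1.17 (1.09 to 1.26). Rrm2, its small subunit, had 25.99 CPM and 25.3 CPM in the v2 pair and 19.7 CPM at 12 months and 13.7 CPM at 2 months in the v3 pair. The Rrm2 ratio was 1.03 (0.901 to 1.18) in the v2 pair and 1.44 (1.32 to 1.58) in the v3 pair. Tyms, which makes thymidylate, had ratios of 1.12 (0.966 to 1.29) and 1.18 (1.08 to 1.29). Slbp, which binds the stem-loop of histone mRNAs, was the most abundant S phase member at 64.4 CPM and 60.2 CPM in the v2 pair and 42.7 CPM and 40.7 CPM in the v3 pair, older library before younger. Uhrf1, which helps to copy DNA methylation, and Hells, a chromatin remodeller of the same process, had ratios of 1.02 to 1.08. Pcna and Tyms have pseudogene copies (Pcna-ps1, Pcna-ps2, Tyms-ps) that could share reads with them.

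Over the whole S phase list, 2 members had an interval above 1 and 1 below it in the v2 pair, where 33.8% of all genes with a ratio were above and 19.0% below. In the v3 pair 4 were above and 1 below, where 19.9% of all genes were above and 41.0% below. The share above 1 was smaller than that of all genes in the v2 pair and close to it in the v3 pair. The summed S phase level was 313 CPM at 18 months and 284 CPM at 2 months, a ratio of 1.10 (1.06 to 1.14), and 256 CPM at 12 months and 227 CPM at 2 months, a ratio of 1.13 (1.10 to 1.15).

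The G2/M members were more often higher in the older library, above all in the v3 pair. Cdk1, the kinase that drives entry into mitosis, had 20.1 CPM at 18 months and 18.1 CPM at 2 months (v2), and 17.9 CPM at 12 months and 10.4 CPM at 2 months (v3), a ratio of 1.72 (1.56 to 1.90) in the v3 pair. Its cyclin partner Ccnb2 had 16.8 CPM at 18 months and 11.3 CPM at 2 months, and 14.1 CPM at 12 months and 7.90 CPM at 2 months, with ratios of 1.49 (1.24 to 1.80) and 1.78 (1.59 to 1.99). Ccnb1 had ratios of 1.20 (0.969 to 1.49) and 1.56 (1.37 to 1.77), and Ccna2, the cyclin of S phase and G2, of 1.46 (1.17 to 1.82) and 1.75 (1.54 to 1.99). All 3 cyclins were thus higher in the older library of both pairs, Ccnb1 within counting error in the v2 pair. Ccnb1 and Ccnb2 have pseudogene copies (Ccnb1-ps, Ccnb2-ps), and Ccna2 overlaps Exosc9 on the other strand.

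Cdc20 and Ube2c, which act in mitotic exit, had intervals above 1 in both pairs. Cdc20, which activates the anaphase-promoting complex, had 18.4 CPM at 18 months and 11.1 CPM at 2 months, and 12.0 CPM at 12 months and 7.72 CPM at 2 months. Its ratios were 1.66 (1.38 to 1.99) and 1.56 (1.39 to 1.75), so that the older library was higher by about the same factor in each chemistry. Ube2c, the ubiquitin-conjugating enzyme of that complex, had 32.8 CPM at 18 months and 24.2 CPM at 2 months, and 40.4 CPM at 12 months and 22.4 CPM at 2 months, with ratios of 1.35 (1.19 to 1.54) and 1.81 (1.69 to 1.93). Cdc20 overlaps Elovl1 and Ube2c overlaps Tnnc2 on the other strand. Birc5, a subunit of the chromosomal passenger complex, had ratios of 1.21 (1.05 to 1.39) and 1.71 (1.57 to 1.86), and Aurkb, the kinase of the same complex, of 1.17 (0.892 to 1.53) and 1.51. The mitotic kinase Aurka had ratios of 1.43 and 1.38, and Plk1 of 1.14 (0.794 to 1.63) and 1.66. Bub1 and Bub1b, kinases of the spindle checkpoint, were scarce. Bub1 had 2.34 CPM at 18 months and 1.43 CPM at 2 months (v2), and 4.10 CPM at 12 months and 2.61 CPM at 2 months (v3). Its v2 interval ran from 0.970 to 2.84, and Bub1b had ratios of 1.43 (0.945 to 2.20) and 1.41. The v2 ratios of Aurkb, Plk1, Bub1 and Bub1b thus lay within counting error.

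The genes of chromosomes, centromeres and the spindle split into those with a higher level in both older libraries and those whose v2 ratio was near or under 1. Cenpa had 29.7 CPM at 18 months and 19.98 CPM at 2 months, and 41.1 CPM at 12 months and 22.9 CPM at 2 months, with ratios of 1.49 (1.30 to 1.71) and 1.79 (1.68 to 1.92). Mki67, which coats mitotic chromosomes, had 14.999 CPM at 18 months and 11.7 CPM at 2 months, and 23.6 CPM at 12 months and 17.1 CPM at 2 months, with ratios of 1.28 (1.06 to 1.55) and 1.38 (1.27 to 1.49). Cenpe, a kinetochore motor, had ratios of 1.54 (1.17 to 2.02) and 1.35 (1.17 to 1.55). The other pattern was that of Top2a, the topoisomerase that untangles sister chromatids, with 37.4 CPM at 18 months and 42.7 CPM at 2 months, and 46.1 CPM at 12 months and 34.2 CPM at 2 months. Its ratio was 0.877 (0.789 to 0.975) in the v2 pair and 1.35 in the v3 pair. Cenpf, an outer kinetochore protein, had 21.0 CPM at 18 months and 27.6 CPM at 2 months, and 29.7 CPM at 12 months and 26.6 CPM at 2 months, with ratios of 0.763 (0.665 to 0.875) and 1.11 (1.04 to 1.19). The spindle proteins Kif11, Tpx2 and Nusap1 had ratios of 0.980, 1.07 and 1.10 in the v2 pair and of 1.67, 1.56 and 1.48 in the v3 pair.

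Of the 20 G2/M members, 9 had an interval above 1 and 2 (Cenpf and Top2a) below it in the v2 pair, where 33.8% of all genes were above. All 20 of 20 were above in the v3 pair, where 19.9% of all genes were. A ratio of 1.5 or more was reached by 13 members in the v3 pair (against 7.16% of all genes) and by 3 in the v2 pair (against 17.5% of all genes). The median ratio of the members was 1.24 in the v2 pair, where that of all genes was 1.08 and 17 of the 20 members lay above 1. In the v3 pair the median was 1.56, and that of all genes 0.927. The summed G2/M level was 297 CPM at 18 months and 253 CPM at 2 months, a ratio of 1.18 (1.13 to 1.22), and 335 CPM at 12 months and 219 CPM at 2 months, a ratio of 1.53. Scaled by TMM factors, which set most genes to no change, the S phase ratios were 1.02 in the v2 pair and 1.21 in the v3 pair, and the G2/M ratios 1.09 and 1.63. The v2 direction did not hold when every cell was given the same weight (0.942 for S phase and 0.900 for G2/M) or when keratinocyte-like cells were left out (0.760 and 0.779), and the v2 G2/M ratio was 1.00 without the removal of doublets, whereas the v3 ratios stayed above 1 (1.09 and 1.39 with equal weights, 1.08 and 1.65 without keratinocyte-like cells).

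**Figure D2:**
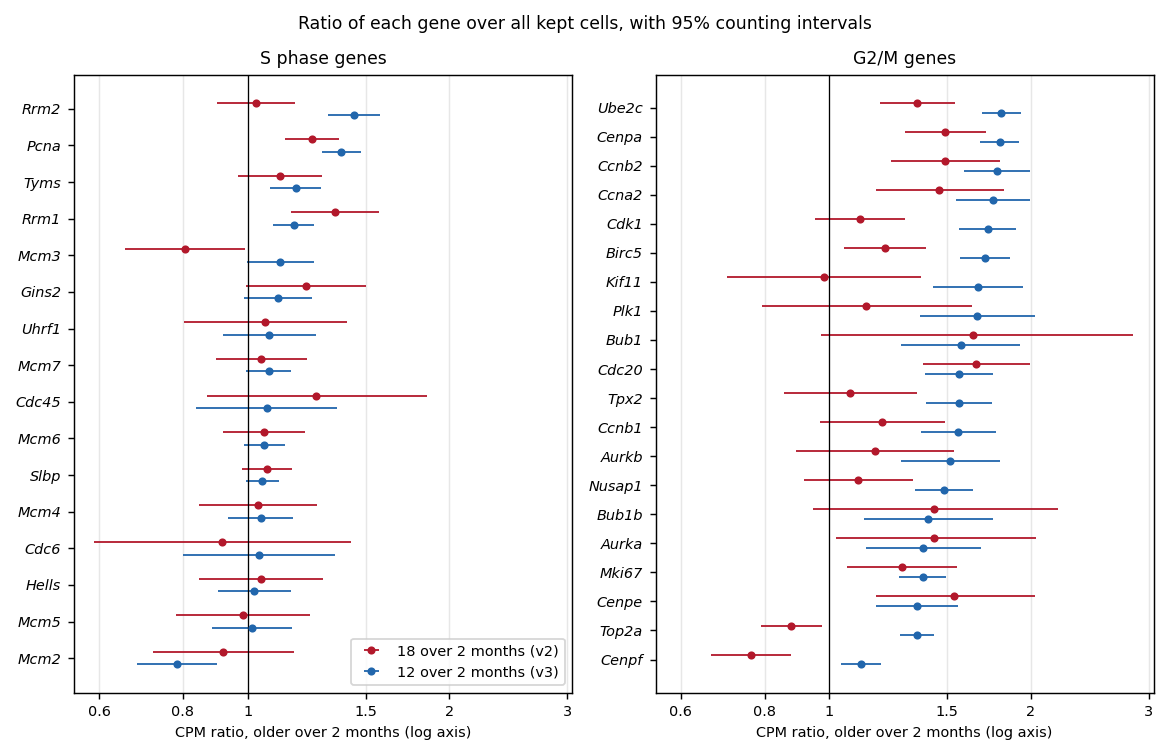
Ratio of each member's CPM, older over 2 months, over all kept cells, with its 95% counting interval, on a log axis; red is 18 over 2 months in the v2 pair, blue is 12 over 2 months in the v3 pair. All 20 G2/M intervals of the v3 pair lie above 1, while those of Cenpf and Top2a in the v2 pair lie below it.

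The age difference was tested over the 4 libraries with edgeR's quasi-likelihood test, with both older libraries against both 2-month libraries and the chemistry as a covariate, which leaves 1 residual degree of freedom. None of the 36 members passed an adjusted p of 0.05, and none of 15454 genes tested did (0.00%), while 1677 genes (10.9%) had an unadjusted p under 0.05. DESeq2 called 396 of 14155 genes (2.80%) and no member. In edgeR's fit, 13 of 16 S phase members had a log2 fold change above 0, with a median of 0.09, from -0.24 for Mcm2 to 0.39 for Pcna, and 0 had an unadjusted p under 0.05. Of the G2/M members 19 of 20 were above 0, with a median of 0.49, and 5 had an unadjusted p under 0.05, beside 6.35% of all genes that were higher at that p. The median over all genes was 0.00. Ordered by their unadjusted p, the 5 were Cdc20 (0.69, SE 0.16, adjusted p = 0.363 by edgeR), Cenpa (0.71, SE 0.18, adjusted p = 0.380 by edgeR), Ccnb2 (0.71, SE 0.20, adjusted p = 0.401 by edgeR), Ccna2 (0.69, SE 0.22, adjusted p = 0.425 by edgeR) and Ube2c (0.65, SE 0.21, adjusted p = 0.436 by edgeR). No member's difference was thus shown to exceed the disagreement between the 2 pairs, which the fit estimates in large part from all genes together, not from the gene alone. The pairs differed in reporter, chemistry and the age of the older mice.

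The wider lists of the same phases showed like values. Of 36 further S phase genes 22 had a log2 fold change above 0, with a median of 0.06 and 0 at an unadjusted p under 0.05. Of 53 further G2/M genes 47 were above 0, with a median of 0.42 and 8 at that p. Nek2, a centrosome kinase, had 2.29 CPM at 18 months and 0.933 CPM at 2 months, and 1.84 CPM at 12 months and 1.16 CPM at 2 months, a log2 fold change of 0.96 (SE 0.35, adjusted p = 0.461 by edgeR). Knstrn, a kinetochore protein, had 9.06 CPM at 18 months and 4.98 CPM at 2 months, and 7.35 CPM at 12 months and 3.94 CPM at 2 months, a log2 fold change of 0.89 (SE 0.22, adjusted p = 0.373 by edgeR). Kif14, a kinesin of cell division, had the lowest log2 fold change, -0.52, with 0.781 CPM at 18 months and 0.685 CPM at 2 months, and 1.41 CPM at 12 months and 2.85 CPM at 2 months, so that the 2 pairs differed in direction. Ttk, a kinase of the spindle checkpoint, followed at -0.20, with 6.20 CPM at 18 months and 8.59 CPM at 2 months, and 5.62 CPM at 12 months and 5.43 CPM at 2 months. Among the further S phase genes the highest were Rfc4, a subunit of the clamp loader, and Dscc1, of another such loader, both at 0.34, and the lowest Cdc25a, a phosphatase that activates cyclin-dependent kinases, at -0.31, and Exo1, an exonuclease of DNA repair, at -0.30. Cdc25a had 5.05 CPM at 18 months and 6.04 CPM at 2 months, and 7.998 CPM at 12 months and 10.3 CPM at 2 months. None of these 8 genes passed the test.

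Most UMIs of the G2/M members lay in cells that carried other G2/M transcripts, and a smaller share of those of most S phase members did. Each gene's UMIs were set against the cells that carried 3 or more UMIs of the other G2/M members, which were 6.05% and 9.12% of the 18-month and 2-month v2 cells and 10.1% and 8.04% of the 12-month and 2-month v3 cells. For the median G2/M member, these cells held 91.6% and 88.1% of its UMIs in the v2 pair and 93.0% and 89.3% in the v3 pair, older library before younger. The S phase members were set against these same cells, not against cells chosen by other S phase genes. The median S phase member had 46.9%, 54.8%, 52.8% and 46.5% of its UMIs there in the same order of libraries. Bub1 was the G2/M member held most closely, at 94.5% to 99.0% over the libraries. Cenpf and Cenpa were held least, with 48.2% to 70.2% of their UMIs in such cells. Among S phase members, Uhrf1 was held at 76.2% to 86.0% and Rrm2 at 65.2% to 78.8%, whereas Slbp was at 21.9% to 28.0% and Pcna at 26.1% to 41.3%. Most transcripts of Slbp and Pcna were thus in cells with fewer than 3 such UMIs.

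**Figure D3:**
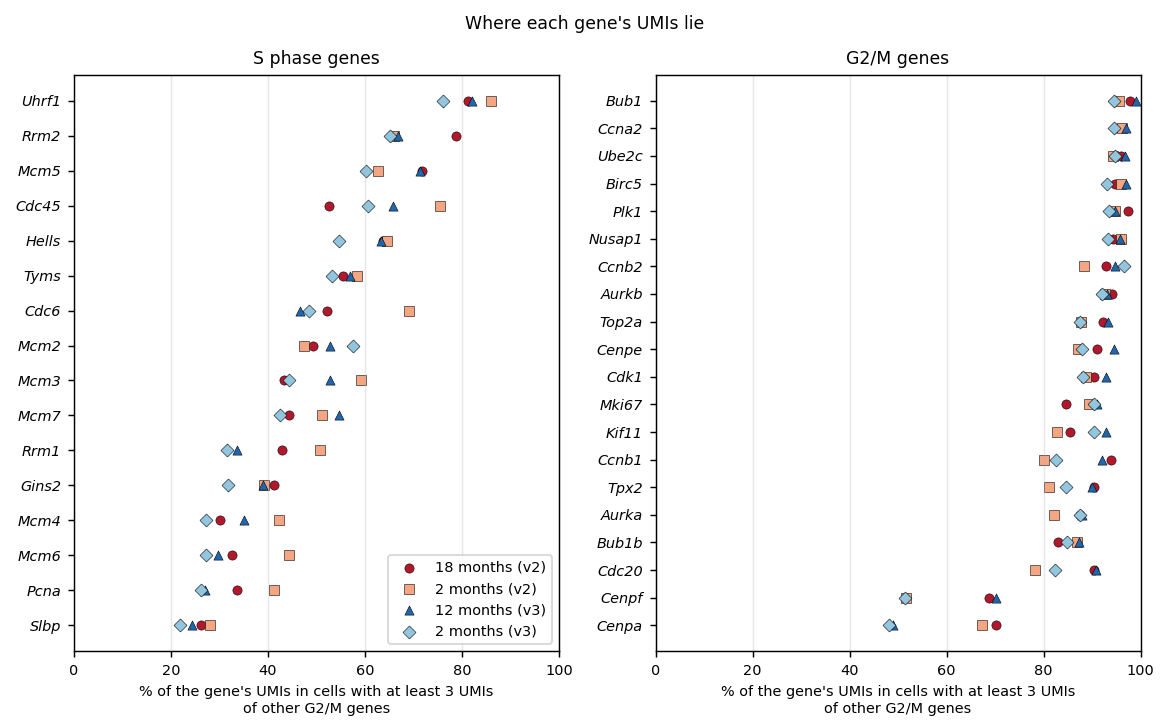
Share of each gene's UMIs, in percent, found in cells with 3 or more UMIs of the other G2/M members, 1 point per gene and library. G2/M genes lie mostly near 90%, apart from Cenpa and Cenpf, while S phase genes run from 21.9% (Slbp) to 86.0% (Uhrf1).

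The shares of cells with a UMI overlapped between the lists. At 18 months Cdc6 was found in 1.73% of cells and Mcm2 in 4.48%, within the range of the G2/M members, which ran from 1.32% for Bub1 to 8.43% for Cenpa. Slbp was found in 32.7% of 18-month and 35.96% of 2-month v2 cells, Pcna in 28.9% and 27.1%, Top2a in 5.72% and 7.75%, and Bub1 in 1.13% of the 2-month v2 cells. In the v3 pair, Pcna was found in 29.5% of 12-month and 22.5% of 2-month cells, Top2a in 6.89% and 7.35%, and Cenpa in 14.9% and 12.3%. A background can be read from arrector pili-like cells, smooth muscle that seldom divides, which had 456 cells in the 2-month v3 library and a median depth of 11596 UMIs there, against 11942.5 over the whole library. There Top2a was found in 0.439% of cells, Cenpa in 1.10% and Cenpf in 0.219%, while Slbp was in 25.0% and Pcna in 19.3%. Slbp and Pcna were thus detected often even in these cells with next to no G2/M transcripts, whose summed G2/M level was 9.90 CPM (53 UMIs). Over the whole 2-month v3 library they were found more often, Slbp in 33.9% and Pcna in 22.5% of cells. The summed S phase level was 93.7 CPM in the arrector pili-like cells and 227 CPM over that library.

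Depth was made equal before cells were counted. Each cell was thinned to 3000 UMIs, which left out 80 and 0 shallower cells of the v2 pair and 139 and 205 of the v3 pair, and cells with 3 or more UMIs over a list were counted. For the G2/M list these were 96 of 2351 cells at 18 months (4.08%) and 71 of 1677 at 2 months (4.23%), a difference of -0.15 percentage points (-1.45 to 1.08). In the v3 libraries they were 175 of 3825 cells at 12 months (4.58%) and 151 of 5183 at 2 months (2.91%), a difference of 1.66 points (0.871 to 2.49). Over all kept cells, the share of cells with a G2/M signature was thus higher at 12 months by more than counting error. In the v2 pair it did not differ detectably. By class, the v3 difference was 4.45 points (1.52 to 7.38) in macrophage/dendritic-like cells. These were 765 of 3964 kept cells at 12 months and 682 of 5388 at 2 months. In keratinocyte-like cells the difference was 6.33 points (-0.604 to 13.5), and the intervals of the fibroblast-like, papilla-like and sheath-like classes also held 0. Over all kept cells and the other 19 members, without Cenpa, the thinned shares were 3.96% at 18 months and 4.29% at 2 months, a difference of -0.34 points (-1.63 to 0.890), and 3.503% at 12 months and 2.33% at 2 months, a difference of 1.17 points (0.469 to 1.90). Without thinning, the shares were 6.05% and 9.12% in the v2 pair and 10.1% and 8.04% in the v3 pair with Cenpa, and 6.84% (6.07% to 7.67%) at 12 months and 6.27% (5.64% to 6.95%) at 2 months without it. In the exact count of 3 UMIs lay 13, 7, 34 and 28 cells, and in that of 2 UMIs, just outside, 21, 20, 72 and 74. The thinned shares for the S list were 6.47% (18 months) and 6.92% (2 months) in v2 cells, and 4.84% (12 months) and 4.09% (2 months) in v3 cells, with differences of -0.45 (-2.06 to 1.09) and 0.75 points (-0.11 to 1.63). Of the cells past the G2/M limit, 54.2% at 18 months and 64.8% at 2 months also passed the S limit, and 39.4% at 12 months and 58.9% at 2 months. Few cells carried most of the G2/M signal: the highest 1% of cells (25, 17, 40 and 54) held 52.8% and 46.3% of the G2/M UMIs in the v2 pair and 51.5% and 59.0% in the v3 pair, but 25.0%, 21.4%, 20.8% and 21.2% of the S UMIs. Counting intervals on UMIs are therefore narrower than the uncertainty over cells.

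Keratinocyte-like cells held a larger share of the G2/M UMIs than of the cells in every library. Such a share also rises with the UMIs per cell. In the 2-month v2 library their G2/M level was 161 CPM, below the 253 CPM over all kept cells. Their S phase level there was 164 CPM, below the 284 CPM over all kept cells. The shares of cell types in a sorted library follow the gates, so they are not a measure of the skin. Keratinocyte-like cells were 6.01% of 18-month and 15.2% of 2-month v2 cells and 5.37% of 12-month and 5.64% of 2-month v3 cells, yet held 28.6% and 25.0% and 29.1% and 34.5% of the G2/M UMIs. One cluster led by Krt25 and Krt71, keratins of the inner root sheath, was 1.40% and 0.894% of the v2 cells and 1.24% and 1.13% of the v3 cells, and held 21.4% and 15.2% and 19.7% and 21.0% of the G2/M UMIs. In it the summed G2/M level was 2677 CPM at 18 months and 4500 CPM at 2 months (34 and 15 cells), and 3725 CPM at 12 months and 3445 CPM at 2 months (49 and 61 cells). Its cells past the thinned G2/M limit were 61.8% and 80.0% of the v2 cells and 70.8% and 54.2% of the v3 cells.

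In the mesenchymal cells as 1 pool, the 2 pairs went opposite ways. It was made of all cells but the keratinocyte-like, macrophage/dendritic-like and endothelium-like classes, was formed after the data were seen, and held 77.9% of the cells of both v2 libraries and 74.4% and 79.8% of those of the 12-month and 2-month v3 libraries. The makeup of the pool differed between the libraries. Of its 4302 cells in the 2-month v3 library, 954 and 925 were in a pair of unnamed clusters and 456 were arrector pili-like, against 11, 9 and 2 of the 2951 cells at 12 months, of which 1426 were in 1 sheath-like cluster that had 30 cells at 2 months. The pool's summed G2/M level was 219 CPM at 18 months and 320 CPM at 2 months, a ratio of 0.684 (0.650 to 0.721). In the v3 pair it was 247 CPM at 12 months and 148 CPM at 2 months, a ratio of 1.67 (1.62 to 1.72). The v2 direction was not shared by all its classes. Pericyte or vascular smooth muscle-like cells (255 at 18 months, 219 at 2 months) had 334 CPM and 145 CPM, a ratio of 2.30 (1.93 to 2.75). The fibroblast-like, papilla-like and sheath-like classes had v2 ratios below 1. Members were also compared singly over the whole pool. In the v2 pair 19 of 20 members were lower at 18 months, 13 of them with an interval below 1 (26.2% of all genes were below and 14.6% above). In the v3 pair 20 of 20 had an interval above 1 (19.2% of all genes were above and 38.3% below). Whether the 2 ratios differ beyond the spread between animals was not tested, since each age and chemistry had 1 library.

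Single members showed the same opposite directions in this pool. Top2a had 24.1 CPM at 18 months and 53.4 CPM at 2 months, a ratio of 0.452 (0.391 to 0.522), and 32.8 CPM at 12 months and 23.1 CPM at 2 months, a ratio of 1.42 (1.31 to 1.54). Mki67 had 8.70 CPM at 18 months and 13.4 CPM at 2 months, a ratio of 0.649 (0.498 to 0.847), and 13.7 CPM at 12 months and 8.91 CPM at 2 months, a ratio of 1.54. For both genes the 18-month library was thus the lower and the 12-month library the higher of its pair. Ube2c had ratios of 0.8002 and 2.19, Ccnb2 of 0.743 and 2.05, and Cenpf of 0.700 and 1.15. Cdc20 was the exception, with 15.3 CPM at 18 months and 14.3 CPM at 2 months, and 9.39 CPM at 12 months and 5.07 CPM at 2 months, ratios of 1.06 and 1.85.

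The S phase members of this pool had a summed level of 282 CPM at 18 months and 365 CPM at 2 months, a ratio of 0.773 (0.737 to 0.811), and 222 CPM at 12 months and 193 CPM at 2 months, a ratio of 1.15 (1.12 to 1.19). In the v2 pair 15 of 16 were lower at 18 months, 10 with an interval below 1. In the v3 pair 12 of 16 were higher at 12 months, 5 with an interval above 1 and 1 (Hells, 0.826) below. Mcm5 had 5.38 CPM at 18 months and 12.0 CPM at 2 months, a ratio of 0.449, and 3.80 CPM at 12 months and 3.83 CPM at 2 months, a ratio of 0.993. Rrm2 had ratios of 0.731 and 1.71 and Pcna of 0.930 and 1.52, while Slbp had 0.840 and 1.05.

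In thinned cells of the pool, 43 of 1819 at 18 months (2.36%) and 47 of 1307 at 2 months (3.60%) passed the G2/M limit, a difference of -1.23 points (-2.53 to -0.04). Of the v3 cells, 60 of 2904 cells at 12 months (2.07%) and 71 of 4201 at 2 months (1.69%) passed, a difference of 0.376 points (-0.256 to 1.06). The cells that passed held a median of 11 and 9 thinned G2/M UMIs in the v2 pair, and of 17.5 at 12 months and 9 at 2 months in the v3 pair. The higher summed level at 12 months thus went with a higher median per such cell, a difference that was not tested, while the share of such cells did not differ detectably. The 10 cells with most G2/M UMIs held 46.2% and 48.1% of the pool's G2/M UMIs in the v2 pair and 31.3% and 30.7% in the v3 pair. edgeR called 0 of the 36 members in the pool and 515 of 14456 genes (3.56%), with 1 member (Cdc20, log2 fold change 0.61) at an unadjusted p under 0.05, beside 19.1% of all genes. DESeq2 called 638 genes (4.54%) and no member.

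**Figure D4:**
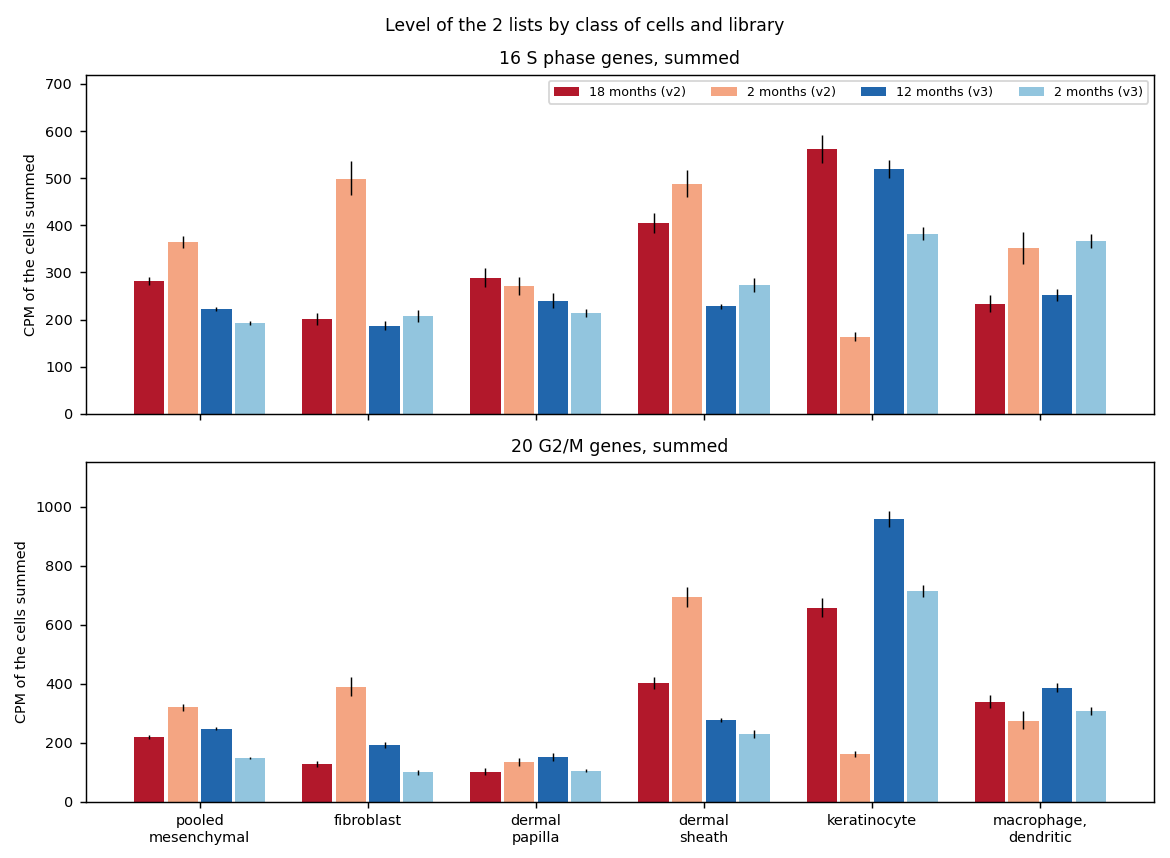
Summed S phase and G2/M level, in CPM from 0, in each class and library, the older library of each chemistry left of its 2-month partner, with 95% counting intervals. In fibroblast-like and sheath-like cells and in the mesenchymal pool the G2/M bar of the 18-month library is lower than its partner's, and that of the 12-month library is higher.

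In fibroblast-like cells the pairs also went opposite ways. Their summed G2/M level was 127 CPM at 18 months and 389 CPM at 2 months, a ratio of 0.327 (0.293 to 0.365), and 192 CPM at 12 months and 99.1 CPM at 2 months, a ratio of 1.94 (1.75 to 2.15). In the v2 pair 0 members had an interval above 1 and 13 below it (10.3% and 16.1% of all genes). The v3 pair had 13 above and 0 below (14.2% and 20.5% of all genes). Ube2c had 12.1 CPM at 18 months and 37.0 CPM at 2 months, and 32.1 CPM at 12 months and 9.43 CPM at 2 months, ratios of 0.327 and 3.40 (2.49 to 4.74). Top2a had 15.04 CPM at 18 months and 72.0 CPM at 2 months, a ratio of 0.209, and 22.3 CPM at 12 months and 21.9 CPM at 2 months, a ratio of 1.02. These sums rested on few cells: the 10 cells with most G2/M UMIs held 78.0% and 80.3% of them in the v2 pair and 87.8% and 63.0% in the v3 pair, and 14, 15, 9 and 7 thinned cells passed the G2/M limit. The share of such cells differed by -5.52 points (-10.1 to -2.29) in the v2 pair and by -0.54 points (-2.55 to 0.953) in the v3 pair, so that a higher share at 12 months was not seen. The S phase list did not turn round in the same way, at 201 CPM and 499 CPM in the v2 pair (0.403) and 187 CPM and 207 CPM in the v3 pair (0.903, interval 0.835 to 0.976), older library before younger.

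All 16 S phase members had a log2 fold change under 0 in fibroblast-like cells, with a median of -0.70, and 5 had an unadjusted p under 0.05, of which Mcm5 was at -1.89, Uhrf1 at -1.86 and Hells at -1.49. With each cell classed by its own marker share instead, 8 of 16 were above 0, with a median of -0.05 and 0 at an unadjusted p under 0.05, so that this direction did not hold. edgeR called none of the members, against 99 of 11865 genes (0.834%), and 11.1% of genes had an unadjusted p under 0.05. The lowest adjusted p of an S phase member was 0.181 by edgeR, DESeq2 called 152 genes (1.19%) and no member, and the G2/M members had a median of 0.07 with 0 at an unadjusted p under 0.05. The clusters behind the class differed between libraries: 1 cluster held 414 of 710 cells at 18 months and 55 of 198 at 2 months (v2), and 482 of 708 at 12 months and 56 of 405 at 2 months (v3). Within that cluster the G2/M ratios were 0.621 and 1.70, and within a second one (263 and 98 cells, 191 and 163 cells) they were 0.668 and 0.723. In the third they were 0.484 (0.377 to 0.615, 32 and 42 cells) and 0.195 (0.0621 to 0.470, 34 and 132 cells). The higher G2/M level at 12 months was thus seen in 1 of these 3 clusters. A further cluster of the class held 1 cell at 12 months and 54 at 2 months (v3), with G2/M levels of 0 CPM and 208 CPM.

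Sheath-like cells, which line the follicle from outside, had the highest G2/M level of the fibroblast-like, papilla-like and sheath-like classes. It was 401 CPM at 18 months and 693 CPM at 2 months, a ratio of 0.578, and 277 CPM at 12 months and 228 CPM at 2 months, a ratio of 1.21. All 20 members were lower at 18 months, 14 with an interval below 1 and 0 above (10.9% and 8.81% of all genes), and 7 were above and 1 below in the v3 pair (1392 of 12683 genes were above and 37.0% below), where the members' median ratio was 1.16. In thinned cells 18, 23, 47 and 12 passed the G2/M limit, and the v3 share differed by -0.37 points (-2.63 to 1.16). Top2a had 50.6 CPM at 18 months and 121 CPM at 2 months, and 36.6 CPM at 12 months and 42.6 CPM at 2 months, ratios of 0.419 and 0.858. Hells had ratios of 0.490 and 0.484, with 8.20 CPM at 18 months and 16.8 CPM at 2 months, and 5.35 CPM at 12 months and 11.04 CPM at 2 months. The S list had 14 and 13 of 16 members with a ratio below 1 in the v2 and v3 pair, 5 and 9 of them with an interval below 1. Its summed ratios were 0.828 and 0.834. In edgeR's fit 12 of 16 S phase members were below 0, whereas 13 of 16 were above 0 with each cell classed by its own marker share. Of the S phase members, 3 (Hells, Mcm4 and Mcm5) had an unadjusted p under 0.05, and of the G2/M members Top2a, with a log2 fold change of -0.60. edgeR called 0 members, against 338 of 11271 genes (3.00%), with 14.3% of genes at an unadjusted p under 0.05, and DESeq2 called 107 genes (1.00%) and no member. The 12-month sheath-like cells came mostly from a cluster with 1426 cells there and 30 in its 2-month partner. In the cluster with 388 and 403 cells, the G2/M ratio was 1.27 and the S ratio 1.07.

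Papilla-like cells had a low G2/M level, with 101 CPM at 18 months and 133 CPM at 2 months, a ratio of 0.755 (0.647 to 0.881), and 151 CPM at 12 months and 105 CPM at 2 months, a ratio of 1.43 (1.29 to 1.58). In the v2 pair 1 member was above 1 by its interval and 4 below (11.9% and 9.35% of all genes), and in the v3 pair 8 were above and 0 below (13.6% and 21.1%). In thinned cells 2, 5, 3 and 10 passed the G2/M limit, with share differences of -0.52 points (-1.80 to 0.737) and -0.16 points (-1.09 to 1.38), and 10 cells held 73.5%, 86.4%, 87.5% and 75.1% of the class's G2/M UMIs. Cdc20 was above in both, with 10.9 CPM at 18 months and 4.11 CPM at 2 months, and 7.59 CPM at 12 months and 4.12 CPM at 2 months. Its log2 fold change was 1.13, with an adjusted p of 0.0611 by edgeR. The S phase members stood apart from the G2/M ones here, since Slbp alone had 112 CPM at 18 months and 102 CPM at 2 months, and 70.1 CPM at 12 months and 65.3 CPM at 2 months. Pcna had ratios of 1.35 and 1.53. edgeR called 0 of the 28 members tested, against 3.37% of genes, with 4 S phase (Cdc45, Mcm4, Pcna, Rrm1) and 2 G2/M members (Cdc20, Cenpe) at an unadjusted p under 0.05 beside 12.1% of genes, and DESeq2 called 62 genes (0.435%) and no member. Almost all papilla-like cells of the v2 pair were in 1 cluster (436 and 526 cells) and those of the v3 pair in another (383 and 1090 cells), within which the G2/M ratios were 0.818 and 1.49.

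Keratinocyte-like cells had higher levels of both lists than the mesenchymal and macrophage/dendritic-like classes described here in every library but the 2-month v2 one, and higher levels in the older library of each pair. The G2/M level was 657 CPM at 18 months and 161 CPM at 2 months, a ratio of 4.09 (3.78 to 4.43), and 959 CPM at 12 months and 714 CPM at 2 months, a ratio of 1.34 (1.29 to 1.40). All 20 G2/M members were above 1 by their interval in the v2 pair (44.3% of all genes were, and 10.6% below), and in the v3 pair 20 of 20 had ratios over 1, from 1.06 to 1.77, with 14 intervals above 1 (1808 of 11293 genes) and 0 below (17.2% of all genes). Top2a had 101 CPM at 18 months and 26.7 CPM at 2 months, and 152 CPM at 12 months and 107 CPM at 2 months, ratios of 3.76 and 1.42. The S level had ratios of 3.43 and 1.36, with Mcm5 at 7.88 and 1.63. The makeup of the class moved with this: a cluster led by Krt10 and Krtdap, genes of differentiated epidermis, held 59 of 146 cells at 18 months and 215 of 255 at 2 months (v2), and 92 of 213 at 12 months and 158 of 304 at 2 months (v3).

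Within single keratinocyte-like clusters the ratios were smaller or lay under 1. In the Krt10 cluster the G2/M ratios were 1.20 and 0.508, in the Krt25 cluster 0.595 and 1.08, and in the cluster led by Krt5 and Krt15, genes of basal cells, 2.14 and 0.909. None of the 3 clusters had the class's ratio of 4.09. edgeR called 0 of 36 members and 0 of 11134 genes (0.00%), with 6.13% of genes at an unadjusted p under 0.05. Of the members, 16 of 16 S phase members (median log2 fold change 0.97, 10 at an unadjusted p under 0.05) and 20 of 20 G2/M members (median 1.04, 14 at that p) were above 0, beside 2.82% of all genes higher at that p. DESeq2 called 14 of 9545 genes (0.147%) and no member, with 4 S phase and 6 G2/M members at an unadjusted p under 0.05, beside 2.37% of genes.

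In macrophage/dendritic-like cells the S phase level was lower in the older libraries. It came to 233 CPM at 18 months and 351 CPM at 2 months (0.664) in the v2 pair, and 251 CPM at 12 months and 366 CPM at 2 months (0.686) in the v3 pair. The G2/M level was higher in both, at 339 CPM and 275 CPM in the v2 pair (1.23) and 386 CPM and 308 CPM in the v3 pair (1.25), older library before younger. Without Cenpa it was 283 CPM at 18 months and 231 CPM at 2 months, and 222 CPM at 12 months and 221 CPM at 2 months, so that the v3 difference was not seen over the other 19. The median G2/M ratio in the v3 pair was 0.994, with 10 members above 1 and 10 below. A cluster led by Cd74 held 300 of 369 cells at 18 months and 92 of 109 at 2 months, and 321 of 765 at 12 months and 119 of 682 at 2 months, and one led by C1qa the other 69, 17, 444 and 563 cells. Within the Cd74 cluster the G2/M ratios were 1.05 (0.917 to 1.20) and 0.983 (0.897 to 1.08), and within the C1qa cluster 7.59 (3.79 to 17.8) and 1.21 (1.11 to 1.32). The ratio of 7.59 rested on few cells. Of the 69 cells at 18 months 4.35% had 3 or more G2/M UMIs, and of the 17 at 2 months 0%. Ube2c, for example, had 32 UMIs in 2 cells there at 18 months. The S phase ratios were 0.650 and 0.845 within the Cd74 cluster and 0.9497 and 0.763 within the C1qa cluster. Mcm6 had 12.7 CPM at 18 months and 30.6 CPM at 2 months, and 15.3 CPM at 12 months and 27.5 CPM at 2 months. By interval, 5 and 9 S phase members were below 1 and none above (21.9% and 38.3% of all genes were below), and 4 and 3 G2/M members above and none below (7.05% and 11.6% above), in the v2 and v3 pair. edgeR called 0 members against 1.11% of 11618 genes, with Ccnb2 (log2 fold change 1.27, adjusted p = 0.0987 by edgeR) and Cenpa (0.97, adjusted p = 0.0997 by edgeR) lowest among the members. At an unadjusted p under 0.05 were 5 of 15 S phase members, all lower, and 4 of 20 G2/M members, all higher, beside 12.4% of genes, and DESeq2 called 111 genes (1.98%) and no member.

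Cenpa was unlike the other G2/M members in both of these clusters in the v3 pair. In the C1qa cluster it was found in 17.6% of 12-month and 22.4% of 2-month v3 cells. Mki67 was found in 8.33% and 6.39% of these cells and Top2a in 7.21% and 7.99%. Cenpa gave 18.4% and 18.9% of the G2/M UMIs there. In the cluster led by Il1b and Cd74 (300 and 92 cells, 321 and 119 cells), it had 53.1 CPM at 18 months and 45.4 CPM at 2 months, and 249 CPM at 12 months and 198 CPM at 2 months, and was found in 21.3% and 28.3% of v2 cells and 63.2% and 62.2% of v3 cells. It gave 16.7% and 14.9% of that cluster's G2/M UMIs in the v2 pair and 56.2% and 43.8% in the v3 pair. Cells with 3 or more G2/M UMIs were 42.4% at 12 months and 41.2% at 2 months with Cenpa counted, but 9.97% and 13.4% over the other 19 members. Cenpf stood apart likewise in the Krt10 cluster, where it had 22.6 CPM at 18 months and 30.6 CPM at 2 months in the v2 pair, and 2.11 CPM at 12 months and 3.85 CPM at 2 months in the v3 pair. It gave 33.7% and 54.9% of the G2/M UMIs there in the v2 pair and 10.5% and 9.74% in the v3 pair. Cenpa in the Cd74 cluster and Cenpf in the Krt10 cluster thus differed more between the pairs than between the ages of a pair. Chemistry and reporter cannot be told apart there.

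**Figure D5:**
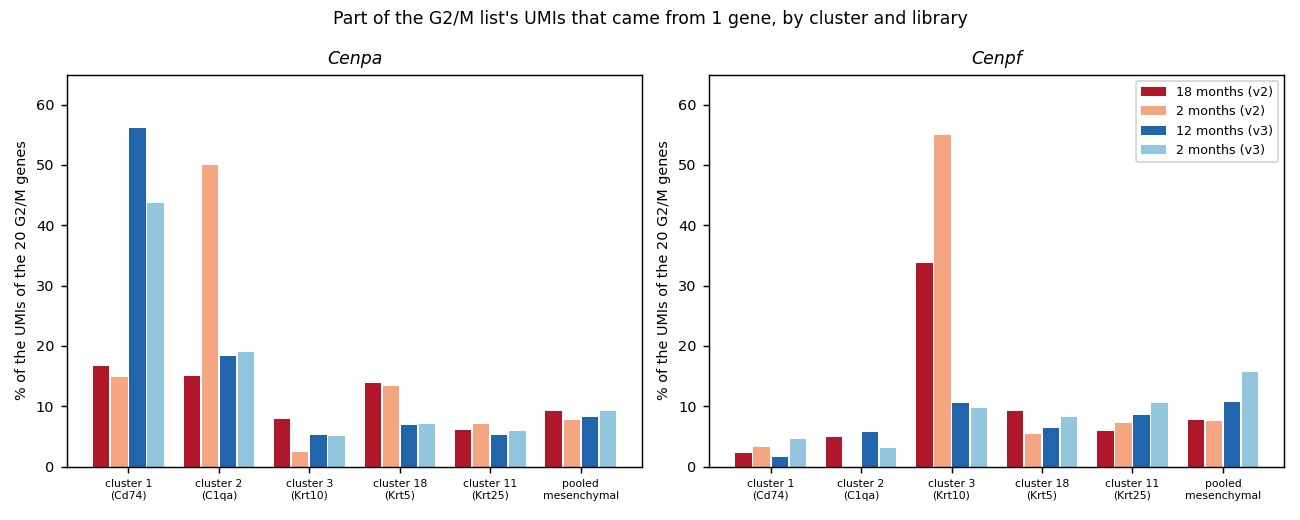
Share of the G2/M list's UMIs, in percent, that came from Cenpa and from Cenpf in each of 5 clusters and in the mesenchymal pool, 1 bar per library, older before 2 months. Cenpa reaches 56.2% in the Cd74 cluster of the 12-month library and Cenpf 54.9% in the Krt10 cluster of the 2-month v2 library; the C1qa cluster held 17 cells in the 2-month v2 library.

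S phase transcripts were also measured in cells without any G2/M UMI. Their summed S level was 192 CPM at 18 months and 176 CPM at 2 months, a ratio of 1.09 (1.02 to 1.16), and 169 CPM at 12 months and 153 CPM at 2 months, a ratio of 1.10 (1.06 to 1.14). In the mesenchymal pool the ratio was 0.972 in the v2 pair and 1.11 in the v3 pair, and in fibroblast-like cells 0.932 and 0.996. The low S ratio of 0.403 in fibroblast-like cells of the v2 pair was thus not seen in their cells without G2/M transcripts. Papilla-like cells had 287 CPM at 18 months and 234 CPM at 2 months, and 219 CPM at 12 months and 190 CPM at 2 months. Their ratios were 1.22 (1.09 to 1.37) and 1.16 (1.05 to 1.27). The older library of each pair was thus higher by more than counting error. Keratinocyte-like cells had larger ratios, of 1.59 in the v2 pair and 1.46 in the v3 pair, both with intervals above 1. Sheath-like cells went the other way, with ratios of 0.863 (0.743 to 1.003) and 0.853 (0.778 to 0.936). Macrophage/dendritic-like cells had ratios of 1.08 and 0.909, with intervals that held 1.

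In the wider lists, 2 genes passed the edgeR test within a class. They were 1 of 51 further G2/M genes tested in sheath-like cells and 1 of 44 in macrophage/dendritic-like cells. Of all genes tested there, 338 of 11271 (3.00%) and 129 of 11618 (1.11%) passed, so these counts were near the background. The clusters behind both classes differed between the libraries. Kif14 was lower in sheath-like cells of the older libraries. It had 1.13 CPM at 18 months and 3.17 CPM at 2 months, and 1.20 CPM at 12 months and 9.46 CPM at 2 months. Its log2 fold change was -2.48 (SE 0.46, adjusted p = 0.0226 by edgeR), on 4, 7, 31 and 48 UMIs. Lmnb1, a lamin of the nuclear envelope, was higher in macrophage/dendritic-like cells of the older libraries. It had 39.8 CPM at 18 months and 24.7 CPM at 2 months, and 81.8 CPM at 12 months and 34.5 CPM at 2 months. Its log2 fold change was 1.31 (SE 0.25, adjusted p = 0.0475 by edgeR). DESeq2 called neither gene: the lowest adjusted p of a further G2/M gene by DESeq2 was 0.485 in sheath-like and 0.0996 in macrophage/dendritic-like cells.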

How the data were processed

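Sorted back-skin cells of 4 samples, 2 mice each, were measured by 10x Genomics 3' single-cell RNA sequencing. The authors deposited unnormalised UMI counts per gene and barcode. The submitters' processing notes name STAR, Cell Ranger 2.0.1, Seurat 2.1.0 and the builds mm10 and GRCm38.p5, and per the file headers the v3 matrices were written by software version 3.0.1.

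A cell was kept if it had 500 genes or more, 1000 UMIs or more and a mitochondrial share under 10%. Doublets were treated by removing the highest 3% of Scrublet scores in each library, since Scrublet's own calls (11, 4, 3 and 96 cells) were too few. Cells were clustered in scanpy 1.11.5 with igraph 0.11.9 (2000 variable genes, 30 components, 15 neighbours, Leiden resolution 0.5, scaling within libraries) without 639 genes that included the cell cycle genes. A cluster was named "-like" from 14 marker lists where at least 3 markers were among its top 100 genes. The deposited counts were summed per library and class, scaled per 1000000 UMIs (CPM), and tested with edgeR 4.0.16 (TMM, filterByExpr, quasi-likelihood, Benjamini-Hochberg adjustment over all genes tested) in R 4.3.3, or with DESeq2 1.42.0 as an alternative. The fits, tested on simulated data, used older against 2-month libraries with chemistry as a covariate. Ratios have exact conditional Poisson 95% intervals and shares of cells Newcombe intervals for their difference, computed in Python 3.11.15 with scipy 1.17.1. All intervals cover counting error only, and cells of 1 library are not replicates. Nothing in the labels beyond 2 mice per sample separates animals, and no 2 libraries were replicates of 1 condition. The p-values thus set the age difference against how far the 2 pairs disagreed, estimated with values shared over genes, and not against a spread between animals. That disagreement also holds the differences in chemistry, reporter and the age of the older mice.

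The members, lists, class names and tests were chosen with earlier results of these data known, and the mesenchymal pool was formed after the data were seen. All 36 members are named, and of the wider lists the 2 genes of each phase with the highest and the 2 with the lowest log2 fold change over all kept cells, plus the 2 genes that passed the test within a class. Where the same gene has pseudogene copies or overlaps another gene, reads could be shared between them.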

Additional observations from a re-analysis of the deposited data

Results flagged for a closer look

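Several results went in opposite directions in the 2 pairs of libraries, which were 18 over 2 months in v2 chemistry and 12 over 2 months in v3 chemistry. In none of these cases was the difference between the pairs tested, because each age and chemistry had 1 library. The summed G2/M level had a ratio of 0.327 in the v2 pair and 1.94 in the v3 pair in fibroblast-like cells, of 0.755 and 1.43 in papilla-like cells, and of 0.578 and 1.21 in sheath-like cells. In the mesenchymal pool that ratio was 0.684 in the v2 pair and 1.67 in the v3 pair, and the ratio of the summed S phase level was 0.773 and 1.15. Over all kept cells, Top2a had a ratio of 0.877 in the v2 pair and 1.35 in the v3 pair, and Cenpf of 0.763 and 1.11.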

How the results depend on the processing

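No paired analysis was possible because the compared ages share fewer than 2 replicate numbers in the labels, but the chemistry term of the fit sets each older library against its 2-month partner. With that term kept, leaving out any 1 library left no residual degrees of freedom, so those values have no test: the median log2 fold change ran from -0.04 to 0.20 for S phase and from 0.20 to 0.74 for G2/M members. Over all kept cells, 0 members were called under every alternative run, while the number of all genes called was 0 by edgeR and 396 by DESeq2. Signs changed for 11 of 36 members when 12 months was counted as young, as the series' design text does, and for 0 to 2 under DESeq2, the looser cell filter, no chemistry term, no doublet removal or no filter on low counts.

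Within classes 0 members were called, but 1 (Birc5 in keratinocyte-like cells) with 12 months counted as young, 1 (Top2a in papilla-like cells) without doublet removal, 8 when each cell was classed by its own marker share (Ccnb2, Cdc20, Cenpf and Ube2c in papilla-like, Pcna, Tpx2 and Ube2c in sheath-like and Cenpa in macrophage/dendritic-like cells), and 12 without a filter on low counts. Several of these settings also called many genes outside the lists. The share of all genes called was not set beside these counts, so they are not read as a result about the members. Of all genes, 336 were called in papilla-like cells without doublet removal. By each cell's own marker share, 336 were called in papilla-like and 378 in sheath-like cells. Without the filter on low counts, 643 were called in fibroblast-like cells, with 4 members among them (Hells, Mcm5, Mcm6 and Mcm7). In papilla-like cells 370 were called with 0 members, and in sheath-like cells 788 with 1 member (Hells). The cause was not tested for these counts or for the shifts that follow. The v2 S phase ratio of 1.10 was 1.02 with TMM factors, and turned to 0.942 as a mean over cells, 0.773 in the mesenchymal pool, 0.760 without keratinocyte-like cells and 0.806 with classes at the 2-month library's shares. The v2 G2/M ratio of 1.18 was 1.09 with TMM factors, 1.08 with the looser cell filter, 1.00 without doublet removal and 1.24 without Top2a, and turned to 0.900, 0.684, 0.779 and 0.779 under the same 4 changes in that order. The v3 S phase ratio of 1.13 was 1.21 with TMM factors, 1.09 as a mean over cells, 1.08 without keratinocyte-like cells and 1.69 at the 2-month shares. The v3 G2/M ratio of 1.53 was 1.63, 1.39, 1.65 and 1.93 under those changes in that order, and 1.67 in the pool. Without thinning, the difference in the share of cells with G2/M transcripts was -3.08 points in the v2 pair and that of S phase transcripts 2.16 points in the v3 pair. In the pool the v3 G2/M difference was 0.376 points. The pool, the set without keratinocyte-like cells and the 2-month shares were chosen after seeing the data. Depth limits the scarce members most, such as Bub1 and Cdc6.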
